A study of Mus musculus with 13 samples.

Results

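The genes described here load peptides from the inside of the cell onto MHC class I molecules. The 10 members were chosen by name: B2m (ENSMUSG00000060802.9), H2-K1 (ENSMUSG00000061232.17), H2-D1 (ENSMUSG00000073411.13), Tap1 (ENSMUSG00000037321.18), Tap2 (ENSMUSG00000024339.13), Tapbp (ENSMUSG00000024308.16), Psmb8 (ENSMUSG00000024338.16), Psmb9 (ENSMUSG00000096727.4), Psmb10 (ENSMUSG00000031897.10) and Nlrc5 (ENSMUSG00000074151.14). All 10 were found among the 34419 genes of the count table, and all 10 passed the filter on low counts that left 17779 genes to be tested. RNA was sequenced from gluteal white adipose tissue (WAT), a subcutaneous fat depot at the rear of the body, of 13 male C57BL/6J mice, a common inbred strain. The mice were born and raised at 22°C (n = 7), a cool room temperature for a mouse, or at 29°C (n = 6), close to thermoneutrality, until they were 13 weeks old, and each numbered replicate, taken here as 1 mouse, gave 1 library. Mice of both groups carried no engineered allele that the labels name, lost the hair of the rear body after weaning, and were single housed with little bedding. The question put to these genes is how the level of each differed between the temperatures.

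MHC class I molecules sit on the surface of nearly all nucleated cells and show short peptides of the cell's own proteins to CD8+ T cells. Each consists of a heavy chain, such as those of H2-K1 and H2-D1, and the small invariant chain beta-2 microglobulin, the product of B2m. Peptides are cut by the proteasome, whose constitutive catalytic subunits can be replaced by the immunoproteasome subunits of Psmb8, Psmb9 and Psmb10. The transporter made by Tap1 and Tap2 moves them into the endoplasmic reticulum, and tapasin, the product of Tapbp, holds the heavy chain beside the transporter until a peptide binds. Nlrc5 encodes the transactivator that drives transcription of much of the pathway, and interferons raise it in many cell types. Adipocytes carry class I molecules too, as do the macrophages, endothelial cells and progenitors of fat, so the level of these genes in whole tissue is a sum over cell types. Fewer cells of a type and less RNA per cell cannot be told apart in such samples.

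The promoters of the surface chains are shown because they carry the elements by which B2m and the heavy chains are known to be switched on together. The sequences are RefSeq's for GRCm38.p6, in which 8 of the 10 members had an entry, and each is the 250 bases before the annotated transcript start, read 5′ to 3′ in the direction of transcription. H2-K1 had 2 annotated starts, of which the one farther downstream was used. Capitals mark matches on either strand to 4 motifs. These were an interferon-response-like motif (GAANNGAAA, or the same with GAAA in place of the first GAA), the κB motif, TGACG, the core bound by CREB and ATF factors and known in class I promoters as the X2 box, and ATTGG, the core bound by NF-Y and known there as the Y box.
B2m, chr2:122147437-122147686, plus strand: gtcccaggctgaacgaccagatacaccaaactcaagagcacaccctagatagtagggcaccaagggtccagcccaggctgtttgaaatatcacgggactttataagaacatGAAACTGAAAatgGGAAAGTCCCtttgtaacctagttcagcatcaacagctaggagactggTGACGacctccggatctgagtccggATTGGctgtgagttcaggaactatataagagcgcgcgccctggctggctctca
H2-K1, chr17:34000334-34000583, minus strand: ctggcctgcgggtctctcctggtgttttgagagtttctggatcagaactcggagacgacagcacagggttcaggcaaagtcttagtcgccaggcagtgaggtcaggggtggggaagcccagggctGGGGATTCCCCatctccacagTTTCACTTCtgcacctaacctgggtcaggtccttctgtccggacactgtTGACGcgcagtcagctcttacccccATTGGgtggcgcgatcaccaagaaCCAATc
H2-D1, chr17:35262844-35263093, plus strand: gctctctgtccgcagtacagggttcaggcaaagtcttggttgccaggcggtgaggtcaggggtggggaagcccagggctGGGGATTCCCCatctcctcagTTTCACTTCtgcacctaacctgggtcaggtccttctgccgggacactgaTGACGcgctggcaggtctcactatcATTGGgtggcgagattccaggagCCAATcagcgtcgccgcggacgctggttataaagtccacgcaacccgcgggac

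The 3 promoters of the surface chains each held all 4 motifs. In each of them TGACG was followed by exactly 20 bases and then ATTGG, a spacing that was noticed after the sequences were seen. This stretch of 30 bases is shown for each gene because it can be compared base by base.
B2m, chr2:122147609-122147638: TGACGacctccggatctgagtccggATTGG
H2-K1, chr17:34000359-34000388: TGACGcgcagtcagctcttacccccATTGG
H2-D1, chr17:35262993-35263022: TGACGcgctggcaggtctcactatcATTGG
Its first base lay 78 bases before the start in B2m, 55 in H2-K1 and 101 in H2-D1. None of the other 5 members with a promoter entry (Tap1, Tapbp, Psmb8, Psmb9 and Psmb10) had this arrangement, which was found in 30 of 32851 mouse promoter windows of the same length (0.0913%).

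Single motifs were more common. TGACG occurred in 5 of the 8 members and in 17.8% of all windows, and ATTGG in 6 of the 8 members and in 33.8% of all windows. The interferon-response-like motif and the κB motif were each found in 3 of the 8 members, which were again B2m, H2-K1 and H2-D1, and in 8.82% and 7.25% of all windows. Psmb8 and Psmb10 had no match to any of the 4 motifs in this window. Psmb9 and Tap1 are read in opposite directions from starts that lie 225 bases apart in this annotation, so that 1 stretch of DNA serves both.
Between Psmb9 and Tap1, chr17:34187331-34187555, strand of Tap1: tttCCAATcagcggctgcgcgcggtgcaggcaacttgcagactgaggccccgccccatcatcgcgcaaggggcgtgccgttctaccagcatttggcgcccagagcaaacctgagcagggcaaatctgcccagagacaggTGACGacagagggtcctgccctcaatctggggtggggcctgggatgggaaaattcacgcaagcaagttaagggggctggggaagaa
A match is a match of letters and not evidence that a factor was bound in these mice.

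**Figure D1:**
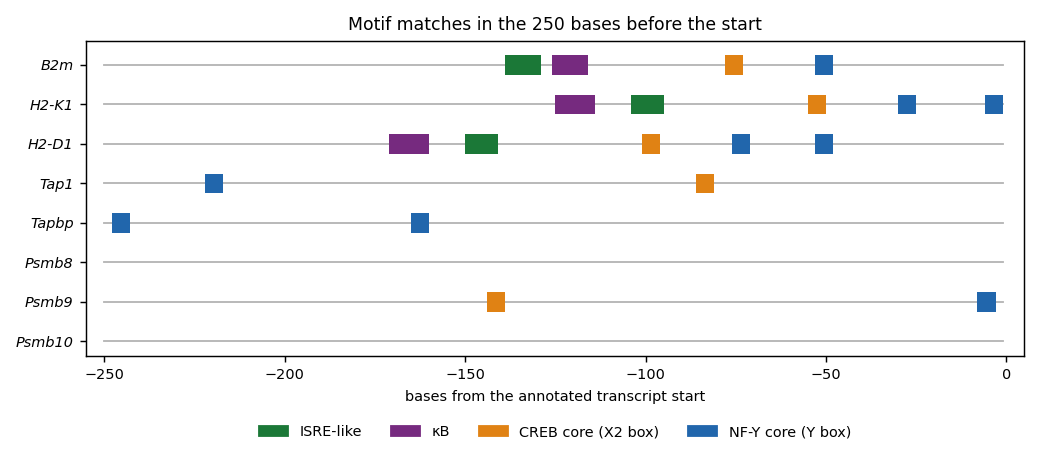
Positions of matches to the interferon-response-like (ISRE-like), κB, CREB core and NF-Y core motifs in the 250 bases before the start of the 8 members with a RefSeq promoter entry. The x axis is in bases from the annotated start. B2m, H2-K1 and H2-D1 each hold all 4 motifs, and Psmb8 and Psmb10 hold none.

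The libraries held between 22356637 and 25245785 counts (median 24987169). Levels are given as CPM, which are counts scaled to a common library size after TMM normalization, and a count of 0 allows up to 3 counts, at most 0.158 CPM. The adipocyte markers were abundant, as the label of the tissue asks: Adipoq, which encodes adiponectin, stood between 1597 and 2863 CPM at 22°C and between 2347 and 3091 CPM at 29°C. Skeletal muscle markers (20 genes) took 6.27% of the counts of 22°C replicate 1 and 8.63% of 22°C replicate 7, against at most 1.64% in any other library. Totals fell into a lower cluster of 5 libraries, all from 22°C, and a higher one of 8, of which 2 were from 22°C. Values that touch the members are given beside them.

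Class I genes differed widely in level. To compare genes, CPM were divided by the length in kilobases of the longest protein-coding transcript. On this scale, at 29°C, B2m stood at 2123 ± 201 CPM per kb (SD, n = 6), higher than 99.9% of the 14246 genes that could be ranked. H2-D1 followed at 752 ± 52.5 and H2-K1 at 524 ± 54.9 CPM per kb, so the 3 surface chains stood apart by more than their SD. Tapbp stood at 83.0 ± 6.16 CPM per kb. Psmb10 (29.5 ± 2.24), Psmb8 (27.6 ± 3.46) and Tap2 (24.9 ± 2.96) followed, and each of them was within 1 SD of the next. Psmb9 (18.4 ± 1.53) and Tap1 (15.9 ± 1.26 CPM per kb) came next. Nlrc5 was the lowest member at 7.15 CPM per kb, near the middle of all ranked genes (51.8% were lower). B2m, H2-D1 and H2-K1 together made up 86.7% of the members' summed CPM at 22°C and 88.8% at 29°C. Over the single mice, the 10 members took between 0.269% and 0.506% of all counts.

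None of the 10 members passed P-adj below 0.1 in the comparison of 22°C with 29°C (edgeR, quasi-likelihood test, Benjamini-Hochberg adjustment over 17779 genes), and the surface chains were the members with the greatest difference. Over the whole table, 345 genes passed (1.94%), of which 215 were lower at 22°C (1.21%). At an unadjusted p below 0.05, 2 members (B2m and H2-D1) were lower at 22°C and none was higher, where 8.2% of all genes were lower. The log2 fold change was below 0 for 8 of the 10 members, against 48.4% of all genes. The median log2 fold change, 22°C relative to 29°C, was -0.09 over the members and 0.01 over all genes tested. With DESeq2, which was the study's own tool, 2 members were called lower at 22°C, where 4.65% of the 16388 genes with an adjusted p were called lower. These 2 were B2m (P-adj = 0.00537) and H2-D1 (P-adj = 0.0629).

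**Figure D2:**
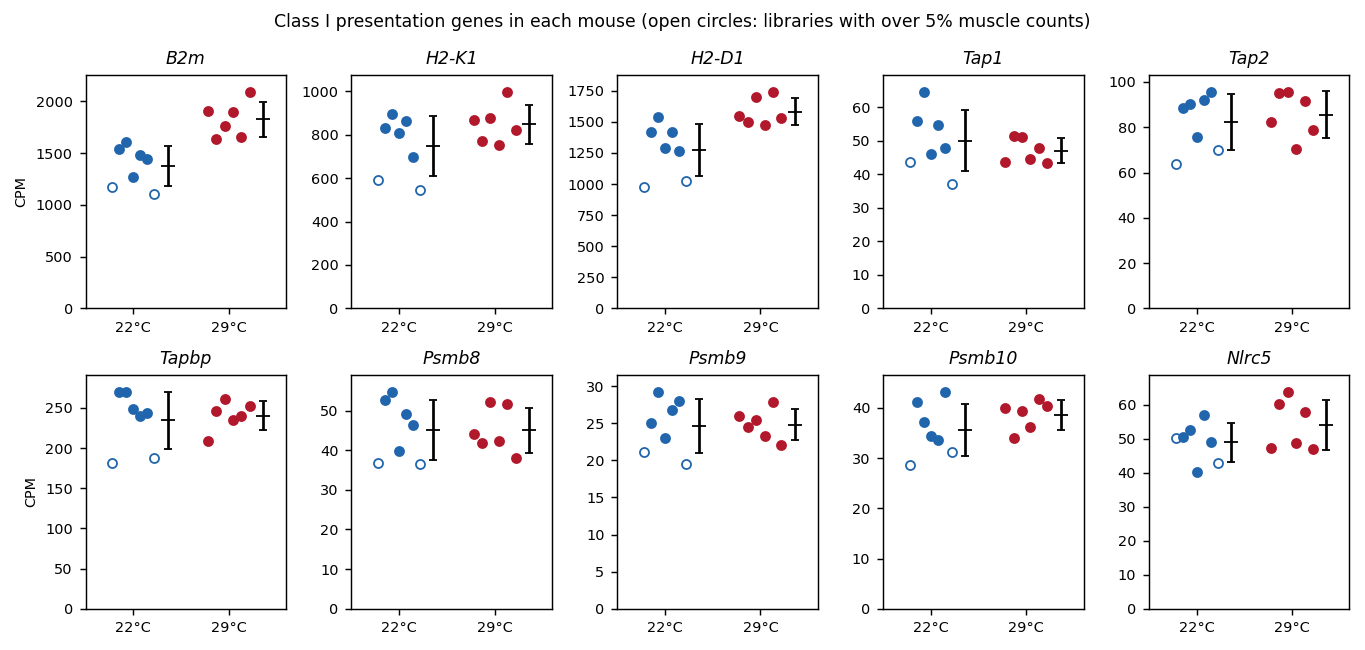
Level of each member in each mouse, in CPM on axes that start at 0, with mean ± SD beside each group (n = 7 at 22°C, n = 6 at 29°C). Open circles are the 2 libraries with over 5% muscle counts. Only for B2m do all mice at 22°C lie below all mice at 29°C.

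B2m had the greatest difference of the 10 members. Across the 7 mice at 22°C its level was 1110 CPM at the lowest, 1440 at the median and 1611 at the highest, and across the 6 mice at 29°C it was 1639, 1829 and 2093 CPM. Every mouse at 22°C was thus below every mouse at 29°C, although the gap between the highest mouse at 22°C and the lowest at 29°C was small. A separation of this kind and direction was seen for 132 of the 17779 genes tested (0.742%). The means were 1375 ± 192 CPM at 22°C and 1826 ± 173 CPM at 29°C (SD), so that the level at 22°C was 24.7% lower. The log2 fold change was -0.41 (SE 0.11), with a 95% interval from -0.64 to -0.18, and its adjusted p of 0.106 (edgeR) lay just outside the threshold, with an unadjusted p of 0.00222.

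The 2 libraries rich in muscle RNA held the lowest B2m levels, 1170 and 1110 CPM. The other 5 mice at 22°C had a mean of 1469 ± 128 CPM (SD), and each of them was still below the lowest mouse at 29°C. Without the muscle-rich libraries the log2 fold change of B2m was -0.32 (edgeR P-adj = 0.154), and with the mean log2 CPM of the muscle markers as a covariate it was -0.30 (P-adj = 0.281). Among the 8 libraries with higher totals, 2 from 22°C and 6 from 29°C, it was -0.53 (edgeR P-adj = 0.275). The 2 from 22°C are replicate 6 and the muscle-rich replicate 7, which had the lowest B2m of all. The difference in B2m kept its direction in all 24 alternative analyses, in which it ranged from -0.53 to -0.30. Part of this was fixed beforehand: P-adj below 0.05 changed only the threshold. Since the groups did not overlap, leaving out libraries could hardly have reversed the sign.

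H2-D1 encodes the classical class I heavy chain of the D region. It was at 976 CPM at the lowest, 1288 at the median and 1542 at the highest in mice at 22°C, and at 1476, 1540 and 1741 CPM in mice at 29°C. Of the 7 mice at 22°C, 6 were below the lowest mouse at 29°C, and 22°C replicate 3 lay within the range of the 29°C group. The means were 1275 ± 210 and 1582 ± 110 CPM, 19.4% lower at 22°C, with a log2 fold change of -0.31 (SE 0.11, 95% interval -0.56 to -0.06, edgeR P-adj = 0.189). Without the 2 muscle-rich libraries it was -0.19, and within the higher totals, which include the muscle-rich replicate 7, it was -0.48.

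H2-K1 encodes the heavy chain of the K region, and its groups overlapped further. It was at 547, 805 and 896 CPM (lowest, median, highest) at 22°C and at 752, 846 and 997 CPM at 29°C. The 3 mice at 22°C that fell below the 29°C range were replicates 1, 6 and 7. The log2 fold change was -0.18 (SE 0.13), with an interval from -0.45 to 0.09 that includes 0 (edgeR P-adj = 0.465). Without the 2 muscle-rich libraries it was -0.05, and within the higher totals, which include replicate 7, it was -0.46. The ratio of H2-D1 to H2-K1 within a mouse was 1.71 ± 0.0973 at 22°C and 1.87 ± 0.0902 at 29°C (SD). The 2 heavy chain genes share sequence. Of the 50-base stretches of the longest coding transcript, 8.79% of those of H2-K1 and 12.1% of those of H2-D1 also occur in at least 1 of 20 other class I genes, so reads from such stretches may have been left out or assigned to another gene.

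The members of peptide transport and loading stood close to the same level at both temperatures. Tap1, the first subunit of the peptide transporter, was at 37.1, 48.0 and 64.6 CPM (lowest, median, highest) at 22°C and at 43.3, 46.3 and 51.6 CPM at 29°C. Its 22°C mice thus spanned the whole 29°C range and reached beyond it on both sides. The log2 fold change of Tap1 was 0.09 (SE 0.11), with an interval from -0.15 to 0.32 (edgeR P-adj = 0.713). Tap2, the second subunit, was at 63.7, 88.3 and 95.5 CPM at 22°C and at 70.2, 87.0 and 95.6 CPM at 29°C, and its log2 fold change was -0.06, with an interval from -0.29 to 0.17. Tapbp was at 182, 243 and 270 CPM at 22°C and at 209, 243 and 261 CPM at 29°C, with a log2 fold change of -0.04 and an interval from -0.26 to 0.18. In both genes the mice that fell below the 29°C range were the 2 muscle-rich ones. Each of the 3 intervals ended above -0.31, the log2 fold change of H2-D1, and still allows smaller differences. The interval of H2-D1 itself, from -0.56 to -0.06, overlapped all of them, and a difference between the genes was not tested. Exons of Tap1 overlap those of Psmb9 on the opposite strand over 212 bases in the GENCODE M21 annotation, 904 exon bases of Tapbp overlap the opposite-strand gene Gm19412, and 533 of Tap2 overlap Gm15821. The strand setting of the counting is not given in the sources used here, so reads from these stretches are uncertain, as are those of 498 exon bases that Psmb8 shares with Gm20496. A further 149 exon bases of Tapbp overlap Zbtb22 on the same strand, so their reads are uncertain under any strand setting.

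The level of B2m relative to these genes within a mouse does not depend on how libraries are scaled. These ratios were examined after the values were seen and are a description only. B2m was 24.9 to 30.02 times the CPM of Tap1 in mice at 22°C and 31.8 to 48.3 times in mice at 29°C. Against Tapbp the ratio was 5.12 to 6.44 at 22°C and 6.66 to 9.13 at 29°C, and against Psmb8 it was 29.4 to 31.9 and 32.2 to 54.9. In these 3 of the 9 ratios of B2m to another member, every mouse at 22°C was below every mouse at 29°C, the 2 muscle-rich libraries included. B2m alone was already separated in this way, and its ratio to 2922 of the 17778 other genes tested (16.4%) was too, so that the count of 3 is no result about the members. Against H2-K1 (1.58 to 2.06 and 1.66 to 2.55) and H2-D1 (0.987 to 1.20 and 0.953 to 1.37) the groups overlapped.

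The catalytic subunits of the immunoproteasome did not pass the threshold either. Psmb8, the chymotrypsin-like subunit also called LMP7, was at 36.4, 46.4 and 54.6 CPM (lowest, median, highest) at 22°C and at 38.1, 43.2 and 52.1 CPM at 29°C, and its log2 fold change was 0.00 with an interval from -0.24 to 0.25 (edgeR P-adj = 0.992). Psmb9, or LMP2, was at 19.5, 25.02 and 29.2 CPM at 22°C and at 22.0, 24.9 and 27.9 CPM at 29°C, with a log2 fold change of -0.01 and an interval from -0.22 to 0.20. Psmb10, or MECL-1, was at 28.7, 34.4 and 43.2 CPM at 22°C and at 34.0, 39.7 and 41.9 CPM at 29°C, with a log2 fold change of -0.12 and an interval from -0.32 to 0.08. For all 3 genes the groups overlapped, and the mice at 22°C had the wider spread, with a coefficient of variation of 14.6% to 16.6% against 7.60% to 12.5% at 29°C. Much of this came with the 2 muscle-rich libraries. In all mice at 22°C the SD was 7.49 (Psmb8), 3.63 (Psmb9) and 5.21 CPM (Psmb10). In the other 5 it was 5.78, 2.47 and 4.16 CPM, against 5.63, 2.06 and 2.94 CPM at 29°C.

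The constitutive subunits that these replace are Psmb5, Psmb6 and Psmb7. Psmb6 had a mean of 90.1 ± 9.0 CPM at 22°C and 79.1 ± 5.21 CPM at 29°C (SD), a log2 fold change of 0.19 (edgeR P-adj = 0.198). Psmb5 (0.21, P-adj = 0.361) and Psmb7 (0.20, P-adj = 0.356) had log2 fold changes of similar size, and none of the 3 passed the threshold. Of the other 11 subunits of the 20S core, 11 had a log2 fold change above 0 and 0 were called (median 0.08), where 51.6% of all genes were above 0. The muscle-rich 22°C replicates 1 and 7 were the highest at 22°C for Psmb7 (log2 CPM 6.85 and 6.64) and Psma3 (6.73 and 6.46). For Psma7 (5.97) and Psmb4 (6.37), replicate 7 was instead the lowest at 22°C. The part of muscle RNA in this shared direction was not tested. The balance of immunoproteasome to constitutive subunit was taken within each mouse and compared by a two-sided exact permutation test over all 1716 splits of the mice, adjusted over the 3 ratios.

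Psmb10/Psmb7 was 0.249, 0.468 and 0.516 (lowest, median, highest) at 22°C and 0.454, 0.508 and 0.573 at 29°C. The log2 ratio was lower at 22°C by a mean difference of -0.32 (exact permutation p = 0.0728, adjusted p = 0.219). Psmb8/Psmb5 (0.506, 0.805 and 1.07 against 0.619, 0.974 and 1.09) differed by -0.21 (exact permutation p = 0.310, adjusted p = 0.310). Psmb9/Psmb6 (0.199, 0.278 and 0.348 against 0.249, 0.321 and 0.364) differed by -0.20 (exact permutation p = 0.197, adjusted p = 0.295). In each ratio the groups overlapped, and the 2 muscle-rich libraries were the lowest of all 13. The other 5 mice at 22°C were at 0.427 to 0.516 (Psmb10/Psmb7), 0.692 to 1.07 (Psmb8/Psmb5) and 0.274 to 0.348 (Psmb9/Psmb6). Without 22°C replicate 1 alone, the differences were -0.20 (Psmb10/Psmb7), -0.11 (Psmb8/Psmb5) and -0.13 (Psmb9/Psmb6), and that of Psmb8/Psmb5 was -0.14 without 22°C replicate 7. The part of muscle RNA in these ratios was not tested.

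**Figure D3:**
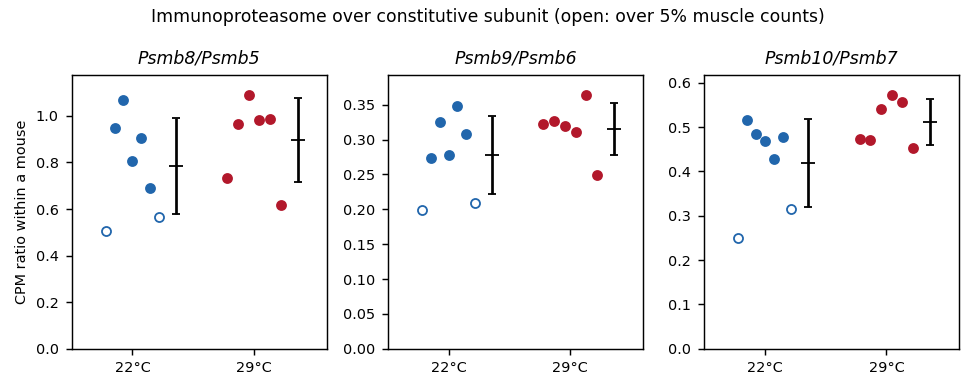
Ratio of immunoproteasome to constitutive subunit within each mouse, on linear axes that start at 0, with mean ± SD beside each group (n = 7 at 22°C, n = 6 at 29°C). Open circles are the 2 libraries with over 5% muscle counts, which are the lowest in all 3 ratios, and the other mice at 22°C lie within or near the range at 29°C.

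Nlrc5, the class I transactivator, was at 40.3, 50.3 and 57.1 CPM (lowest, median, highest) at 22°C and at 47.0, 53.3 and 63.8 CPM at 29°C. The groups overlapped, with 3 mice at 29°C above the highest at 22°C and 2 mice at 22°C below the lowest at 29°C. The means were 49.0 ± 5.68 and 54.2 ± 7.37 CPM (SD), and the log2 fold change was -0.14 (SE 0.10, 95% interval -0.35 to 0.06, edgeR P-adj = 0.448). Nlrc5 differed from the other members in the muscle-rich libraries: these 2 lay below the other 5 mice at 22°C for 9 of the 10 members, and Nlrc5 was the exception. This count was not taken over all genes, so it is no result about the members.

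Nlrc5 was then compared with each other member across mice, within each temperature, on log2 CPM, which gave 18 relations. At 22°C (n = 7) Pearson's r was between 0.18 with Psmb10 and 0.66 with Tap1, with a median of 0.51. At 29°C (n = 6) it was between -0.84 with B2m and 0.97 with Tap1. None of the 18 passed an adjusted p of 0.05. The one nearest to it was Tap1 at 29°C, with r = 0.97 (exact permutation p = 0.00417, adjusted p = 0.075) and Spearman's rho = 0.94 (exact permutation p = 0.0167, adjusted p = 0.227), and without the 2 mice farthest from the median of Nlrc5 its r was 0.99. For B2m, r was 0.64 at 22°C (exact permutation p = 0.128, adjusted p = 0.366), with rho = 0.71 (exact permutation p = 0.0881, adjusted p = 0.227). At 29°C it was -0.84 (exact permutation p = 0.0639, adjusted p = 0.366), with rho = -0.83 (exact permutation p = 0.0583, adjusted p = 0.227). Without the 2 mice farthest from the median, r was 0.31 and -0.92. The mice of a group share their normalization, and the muscle-rich libraries are among the 22°C points.

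Most members were low together in the same few mice. Relative to the 29°C mean, all 10 members were below it in 22°C replicates 1 and 7, whose median over the members was -0.41 and -0.34 on the log2 scale. In 22°C replicate 4, with 1.64% muscle counts, 9 members were below it and the median was -0.16. In the other 4 mice at 22°C the median was between 0.03 and 0.08, with 3 or 4 members below the 29°C mean, and B2m was below it in all 7. Such counts per mouse were not taken over all genes, so they are no result about the members. Without the 2 muscle-rich libraries the median log2 fold change over the members was 0.01. With library totals (lower or higher cluster) in the model, all 10 members were lower at 22°C and none was called, and the same held within the higher totals, where 1 of the 2 mice from 22°C is muscle-rich.

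**Figure D4:**
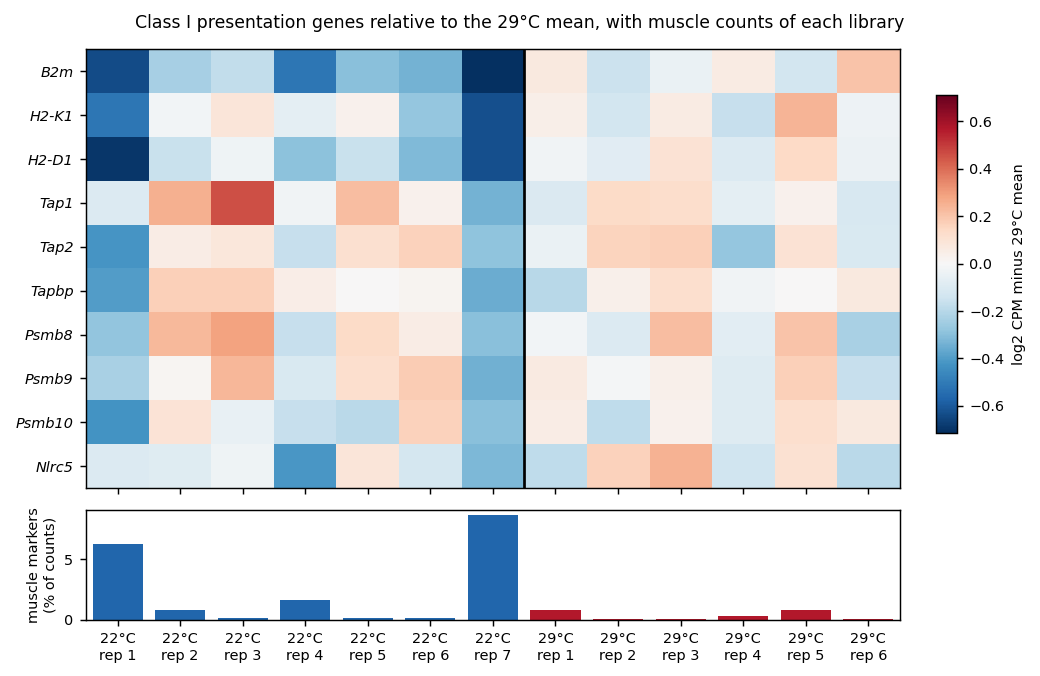
Level of the 10 members in each mouse as log2 CPM minus the 29°C mean (upper panel, colour scale), and the percent of each library's counts taken by 20 muscle markers (lower panel, axis from 0). All members are below the 29°C mean in 22°C replicates 1 and 7, which hold 6.27% and 8.63% muscle counts, and B2m is below it in each mouse at 22°C.

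Beyond the members, 46 genes of the pathway were listed in 4 lists, of which 43 could be tested. Of these, 32 had a log2 fold change below 0 (48.4% of all genes did), 1 was called lower, where 1.21% of all genes were, and none was called higher, and the median of their log2 fold changes was -0.09. The one was Tapbpl, which encodes TAPBPR, a relative of tapasin that edits the peptides on class I molecules outside the loading complex. It was at 15.2, 18.5 and 21.8 CPM (lowest, median, highest) at 22°C and at 20.8, 22.7 and 23.98 CPM at 29°C, and 6 of the 7 mice at 22°C were below the lowest mouse at 29°C. The means were 18.3 ± 2.13 and 22.7 ± 1.10 CPM (SD), a log2 fold change of -0.31 (SE 0.08, edgeR P-adj = 0.0965). This call was lost in 19 of 24 alternative analyses, among them those that left out the muscle-rich libraries or took library totals into account. Over all 24 alternatives its adjusted p ranged from 0.0102 to 0.473.

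All 10 other genes of peptide processing and loading, Tapbpl among them, were lower at 22°C (median log2 fold change -0.12). Pdia3, the disulfide isomerase ERp57 of the loading complex, was at 207 ± 18.9 and 248 ± 23.9 CPM (log2 fold change -0.27, edgeR P-adj = 0.137). The chaperones Calr (-0.15) and Canx (-0.13), the trimming peptidase Erap1 (-0.13) and the proteasome activators Psme1 (-0.09) and Psme2 (-0.12) had smaller log2 differences and did not pass the threshold. Without the muscle-rich libraries 1 of the 43 pathway genes was called, and this was H2-T24 (log2 fold change -0.62, edgeR P-adj = 0.0922) instead of Tapbpl. In that setting 1.47% of the 17944 genes tested were called, and 0.83% were called lower.

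**Figure D5:**
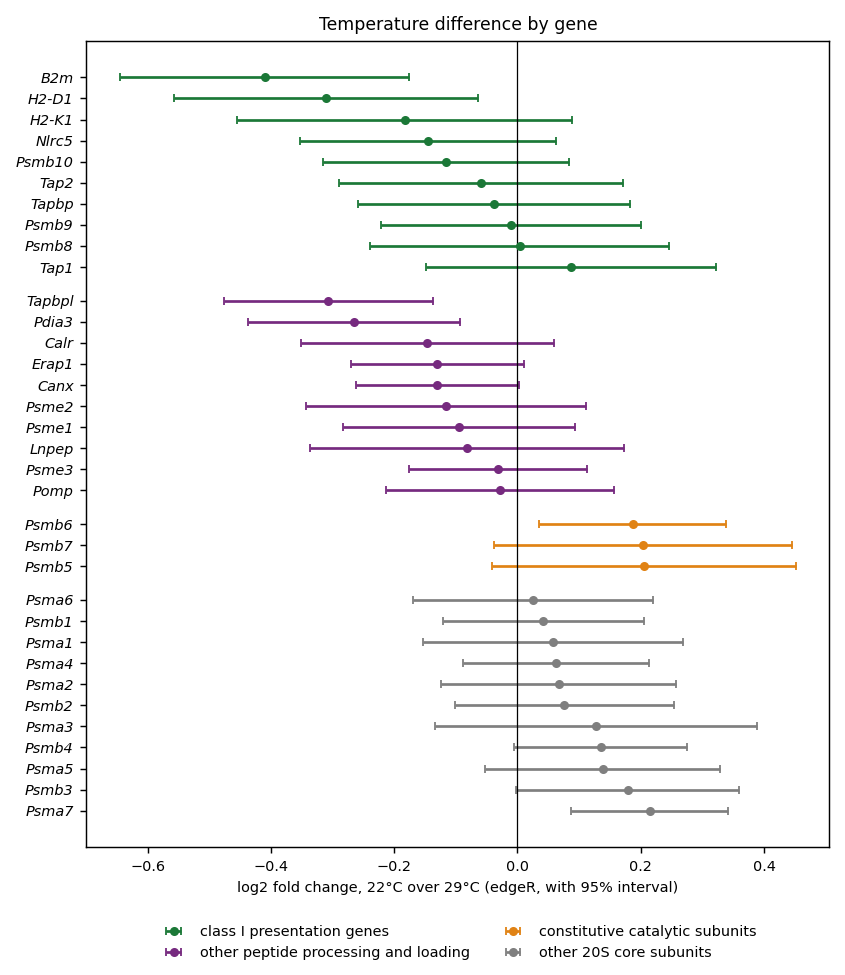
Log2 fold change, 22°C relative to 29°C, with its 95% interval from edgeR (n = 7 and n = 6 mice), for the 10 members, the other genes of peptide processing and loading, the constitutive catalytic subunits and the other subunits of the 20S core. The surface chains B2m and H2-D1 have the members' lowest values (-0.41 and -0.31), and the point estimates of the constitutive and core proteasome subunits lie above 0, most with intervals that include 0 and none of them called.

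Of 15 other class I and class I-like heavy chains, 12 were tested, 9 of them were lower at 22°C and 0 were called (median log2 fold change -0.18). H2-Q4 (-0.18, edgeR P-adj = 0.417), H2-Q7 (-0.23, P-adj = 0.416) and H2-T23 (-0.22, P-adj = 0.335), a gene of the nonclassical Qa-1 molecule, were within their spread between mice. The nonclassical genes H2-T22 (-0.38, P-adj = 0.215) and H2-T24 (-0.47, P-adj = 0.149) had greater log2 differences and are named after their values were seen. These genes are close paralogs, so the assignment of their reads is uncertain. With DESeq2, H2-T24 was called lower at 22°C (P-adj = 0.0395), where 4.65% of all genes were called lower.

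Of 14 factors that control class I transcription, 8 were lower at 22°C and 0 were called (median log2 fold change -0.05). Stat2 (-0.38, edgeR P-adj = 0.118) and Irf9 (-0.32, P-adj = 0.116), which act in the type I interferon response, were chosen after their values were seen. Each was called lower in 2 of 24 alternative analyses. Irf1 (-0.09, P-adj = 0.559) and Irf2 (0.03, P-adj = 0.965), both of which bind interferon-response motifs, differed by less than the spread between mice. Of the 7 interferon receptor and kinase genes 5 were lower and 0 were called (median log2 fold change -0.06).

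Markers of the cell types of fat were read beside these values. Ptprc, the CD45 gene of all white blood cells, had the same mean at both temperatures (19.2 ± 3.56 and 19.2 ± 4.47 CPM, log2 fold change 0.00, edgeR P-adj = 0.996). The 10 macrophage and myeloid markers summed to 529 to 942 CPM at 22°C and 548 to 1021 CPM at 29°C, and 0 of them were called. Over all genes tested 51.6% were higher at 22°C, and 130 of 17779 were called higher. Of 14 T and NK cell markers 10 could be tested, 9 were higher at 22°C and 1 was called higher. This was Cd3e, a chain of the T cell receptor complex, at 1.04 ± 0.552 CPM in the cool group and 0.296 ± 0.166 CPM in the warm one (SD, log2 fold change 1.78, edgeR P-adj = 0.0817), which rests on 2 to 48 counts per library. Cd8a, which marks the T cells that read class I, was at 0.590 ± 0.352 and 0.291 ± 0.182 CPM (P-adj = 0.366). The T and NK markers summed to 4.02 to 17.8 CPM in mice at 22°C and 3.98 to 9.29 CPM in mice at 29°C, and Ifng never exceeded 5 counts and could not be tested.

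Endothelial markers (7 genes) summed to 438 to 603 CPM at 22°C and 439 to 631 CPM at 29°C, with 0 called, and Pecam1 among them had a log2 fold change of -0.15 (edgeR P-adj = 0.572). Progenitor markers (5 genes) summed to 914 to 1584 CPM at 22°C and 985 to 1857 CPM at 29°C, B cell markers (6 genes) to 164 to 306 and 73.2 to 738 CPM, and 0 of either were called. Of the 8 adipocyte markers 5 were lower at 22°C (48.4% of all genes were) and 1 was called lower (1.21% of all genes were). This was Lep, the gene of the adipocyte hormone leptin, whose log2 fold change was -0.78 (edgeR P-adj = 0.0564). Adipoq had a mean of 2236 ± 435 CPM at 22°C and 2773 ± 291 CPM at 29°C (log2 fold change -0.31, P-adj = 0.247), and the 8 markers summed to 12369 to 19018 CPM and 15346 to 19486 CPM. All 20 muscle markers were higher at 22°C, 0 were called and 13 had an unadjusted p below 0.05, with a sum between 978 and 98193 CPM at 22°C and between 181 and 7905 CPM at 29°C. The 5 blood markers were lower at 22°C with 0 called (286 to 755 and 319 to 3365 CPM in sum), as were the 4 epithelium markers of 7 that could be tested (sums of all 7 from 2.11 to 78.3 and from 2.32 to 313 CPM). The part of these cell types in the levels of the class I genes was not tested.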

How the data were processed

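Gluteal WAT of 13 mice was grouped by the temperature in the labels. The authors aligned reads with STAR 2.7.5a, used featureCounts to count reads over genes, and deposited the raw counts, together with rlog values from DESeq2 on a log2 scale. The submitters' processing notes name the GRCm39 build, and the annotation and strand setting are not given in the sources used here. Symbols were matched by identifier without version (34006 of 34419 genes), lengths and exon overlaps are from GENCODE M21, and promoters are from RefSeq GRCm38.p6, so all coordinates are of GRCm38.

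Counts were compared with edgeR 4.0.16 in R 4.3.3 (TMM, filterByExpr, quasi-likelihood F test, Benjamini-Hochberg adjustment over 17779 genes, called at P-adj below 0.1, the study's threshold, no covariate). Standard errors (SE) are derived from the fold change and F. Log2 CPM use a prior count of 2. The study's DESeq2 (1.42.0 here) was an alternative, beside DESeq2 size factors, no filter, the replicate number as a block, a covariate for the muscle score or for the cluster of totals, the higher totals alone, limma 3.58.1 on rlog values, P-adj below 0.05 and leaving out each library. Removing the muscle genes or the 2 muscle-rich libraries was added after the data were seen. Scripts were tested on simulated counts. No 2 libraries were alike within sampling noise (chi-square per gene at least 15.5 in 78 pairs), so each was counted as 1 mouse; the labels do not say that replicates are separate mice, and p-values measure only the spread between these samples if they are not. Limits from counts cover counting error only.

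The members and all lists were chosen with earlier results of these data known. Genes named are the 10 members, 15 pathway genes (1 of which is not reported here) and 4 cell markers set by name, and every listed gene past P-adj below 0.1, and those named after their values were seen are marked so.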

Additional observations from a re-analysis of the deposited data

How the results depend on the processing

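None of the 10 members was called in 21 of 24 alternatives. DESeq2 called 2 members lower at 22°C (B2m and H2-D1), where 4.65% of all genes were called lower. Removing the muscle marker genes called 1 (B2m, edgeR P-adj = 0.0972), where 1.23% of all genes were called lower. Leaving out 1 library in turn called 0 to 1. The 1 was B2m without 22°C replicate 6 (edgeR P-adj = 0.0954), where 2.03% of all genes were called lower. B2m, H2-D1, H2-K1, Psmb10 and Nlrc5 were lower at 22°C in all 24 alternatives, whereas Psmb8 was lower in 12 and Tap1 in 2. Of these alternatives, P-adj below 0.05 has the fold changes of the main fit. The median log2 fold change of the members ranged from -0.16 to 0.01. Of the 43 other pathway genes, 1 was called lower (1.21% of all genes were), against 5 with DESeq2 (4.65% of all genes). With no filter, the replicate block, either covariate, the higher totals or P-adj below 0.05, 0 were called. Leaving out a library gave 0 to 3, where 0.15% to 2.03% of all genes were called lower. With the replicate block (6 shared numbers) 0 members were called, B2m had a log2 fold change of -0.37 (P-adj = 0.173), and 214 genes were called over the table. The numbers share no stated litter or batch, and for that reason alone pairing was not assumed. Same-numbered libraries did deviate together, with a correlation above 0 for each of the 6 shared numbers (0.0508 to 0.513). Of the 6 libraries at 22°C with a shared number, 4 correlated best with their own number. How many such matches arise without a link was not tested, nor was the source of these correlations. All genes called, 345 above, numbered 1676 with DESeq2, 42 with no filter, 44 with the muscle score, 4 with the cluster of totals, 8 within the higher totals, 40 at P-adj below 0.05, and 32 to 652 on leaving out a library. The 3 proteasome ratios were lower at 22°C in all 16 alternatives each, with no adjusted p below 0.107. None of these alternatives left out both muscle-rich libraries, which were the lowest in each ratio, so the shared direction may rest on them. Psmb8/Psmb5 was -0.49 within the higher totals, which include muscle-rich 22°C replicate 7, and -0.14 with the replicate block. The block has no partner for that library and leaves it out, so its 3 differences equal those without replicate 7. Leaving out a library gave -0.31 to -0.11 for Psmb8/Psmb5, against -0.27 to -0.13 for Psmb9/Psmb6 and -0.38 to -0.20 for Psmb10/Psmb7. The replicate block with sign flips gave adjusted p from 0.375 to 0.406. The smallest exact p is 0.0357 within the higher totals and 0.0313 with sign flips. No library stood apart by Dixon's criterion for any named gene or ratio (66 groups examined). The criterion looks for 1 extreme value, and 2 low libraries together, as the muscle-rich ones are here, can hide each other.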
